A study of Rattus norvegicus with 2 samples.

Results

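The genes examined here encode parts of 3 vasoactive peptide systems of the heart, those of endothelin, angiotensin and adrenomedullin. The set was fixed by gene symbol and held 10 genes. The endothelin genes were Edn1, Ednra, Ednrb and Ece1. The angiotensin genes were Agt, Agtr1a and Ace, and the adrenomedullin genes were Adm, Calcrl and Ramp2. Of the 10, 7 had a transcript cluster of the array that carried their symbol alone, out of 22093 genes with such a cluster in all. Each of the 7 had a single cluster. Ace shared its only cluster with another gene symbol, and Ednra and Ednrb were matched to none in the annotation used, so these 3 genes were not analysed here.

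RNA came from primary cardiomyocytes of neonatal SD rats that had been cultured for several days. One culture group received lipopolysaccharide (LPS), a component of the bacterial outer membrane that is sensed by Toll-like receptor 4, at 100 ng/mL for 24 h. The other received vehicle for 24 h. With a single array per group there is no measure of variation within a group. No test is given, and each difference describes these 2 arrays. Of the genes, 14420 had an intensity at or above the median cluster, 49.3, on at least 1 array. This median is called the floor below.

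Endothelin-1, angiotensin II and adrenomedullin are small peptides cut from larger precursors. Endothelin-1 and angiotensin II constrict vessels, act on receptors that couple to Gq and phospholipase C, and enlarge cultured cardiomyocytes. Adrenomedullin dilates vessels through a receptor that raises cyclic AMP and consists of the calcitonin receptor-like protein with a receptor activity-modifying protein. The adrenomedullin gene is induced by hypoxia-inducible factor 1 (HIF-1), the factor named in the series title, and by inflammatory stimuli in many cell types.

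Adm and Agtr1a were the 2 members at least 2-fold different, both higher with LPS, and no member was at least 2-fold lower. For comparison, differences of this size were found for 3.69% of all 14420 genes on the higher side and for 2.63% on the lower side. The 7 members had a median log2 difference of 0.15, against 0 over all genes at or above the floor. Between the extremes, Calcrl lay just under 2-fold higher, Ece1 and Ramp2 differed little, Agt was identical on both arrays, and Edn1 was lower.

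The annotated promoters of Adm and Agtr1a are shown because these were the genes with large differences, and that of Edn1 because it is the ligand gene that was lower. Edn1 was added after its values were seen. The sequences are RefSeq's for assembly GRCr8, with 250 bases before and 50 after the annotated start of the gene, written 5′ to 3′ on the gene's strand. Adm lies at chr1:174179950-174180249 on the plus strand, Agtr1a at chr17:34435383-34435682 on the minus strand and Edn1 at chr17:22666638-22666937 on the minus strand. Capitals mark matches, on either strand, to the hypoxia response core ACGTG or to a loose form of the site bound by NF-κB (GGG, any 5 bases, CC). Matches to TGANTCA, the consensus letters of the AP-1 site, were marked too, and variants of these letters were not searched.
Adm: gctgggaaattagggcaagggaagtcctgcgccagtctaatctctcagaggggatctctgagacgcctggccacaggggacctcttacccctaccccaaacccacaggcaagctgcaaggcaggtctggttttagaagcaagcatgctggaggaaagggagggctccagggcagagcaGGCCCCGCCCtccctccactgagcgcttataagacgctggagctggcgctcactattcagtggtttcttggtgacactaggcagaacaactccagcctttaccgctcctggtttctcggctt
Agtr1a: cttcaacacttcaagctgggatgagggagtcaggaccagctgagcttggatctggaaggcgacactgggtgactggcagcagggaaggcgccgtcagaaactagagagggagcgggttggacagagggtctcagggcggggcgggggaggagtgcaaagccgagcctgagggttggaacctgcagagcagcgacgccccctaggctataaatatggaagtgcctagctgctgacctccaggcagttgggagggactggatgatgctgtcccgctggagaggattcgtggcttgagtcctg
Edn1: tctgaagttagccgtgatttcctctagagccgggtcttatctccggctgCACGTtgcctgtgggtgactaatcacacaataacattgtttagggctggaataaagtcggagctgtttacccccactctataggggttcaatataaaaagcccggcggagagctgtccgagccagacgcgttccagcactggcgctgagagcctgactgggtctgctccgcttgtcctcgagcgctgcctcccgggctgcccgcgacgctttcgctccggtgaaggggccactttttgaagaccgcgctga
The Adm window held 1 match, to the loose NF-κB letters on the minus strand, starting 72 bases before the annotated start. The Agtr1a window held no match to any of the 3 motifs. The Edn1 window held 1 match, to the hypoxia core on the minus strand, starting 201 bases before the start. Over all 33469 promoters of the same length, 19.3% held the hypoxia core, 47.3% the loose NF-κB letters and 7.33% the AP-1 consensus letters. Promoters were given for 8 of the 10 listed genes. Of these, 1 held the hypoxia core, 5 the loose NF-κB letters and 0 the AP-1 consensus letters. The matches, and their absence, are descriptions of these letters and say nothing of binding.

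Among the ligands, Adm (Entrez 25026), the adrenomedullin precursor gene, had an intensity of 3410.3 on the LPS array and 420.3 on the vehicle array. It was thus 8.11-fold higher with LPS, a log2 difference of 3.02, the member furthest from 0. Counted from the most positive difference, Adm stood at position 111 of the 14420 genes. Edn1 (Entrez 24323), which encodes the endothelin-1 precursor, had 379 with LPS and 643 with vehicle. It was 1.70-fold lower with LPS, a log2 difference of -0.76. Of all genes at or above the floor, 5.67% were lower by at least 1.5-fold. Adm, the gene of a dilator peptide, and Edn1, the gene of 1 of the constrictor peptides, therefore lay on opposite sides of 0, Edn1 by less than 2-fold. Agt (Entrez 24179), which encodes angiotensinogen, the precursor of the angiotensins, had 56.4 on both arrays. This is close to the floor, and the same value was recorded for 19 clusters with LPS and 15 with vehicle. Of the genes at or above the floor, 45.9% had identical values on both arrays.

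**Figure D1:**
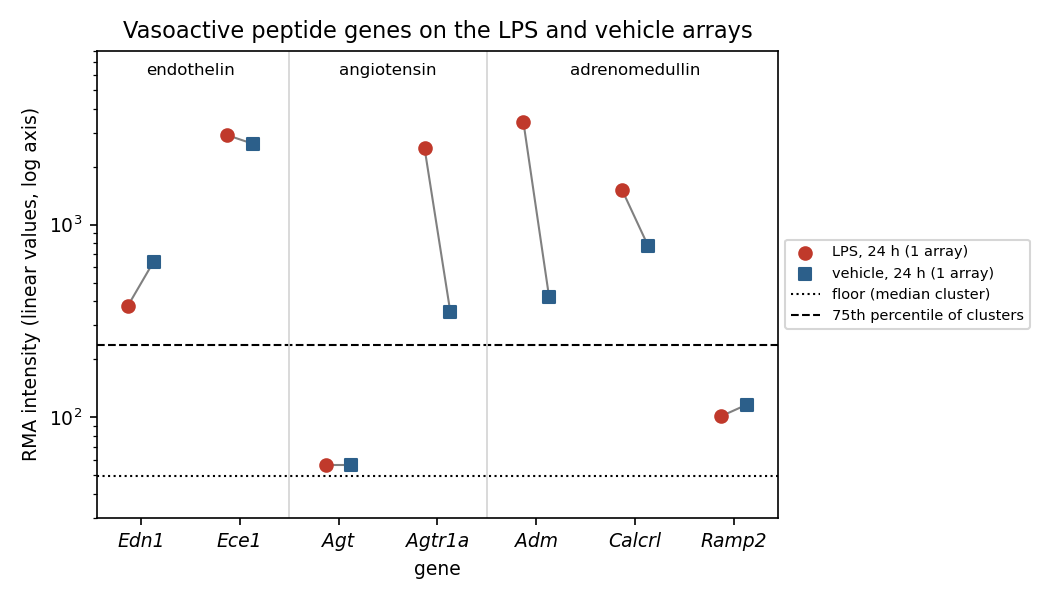
RMA intensities (log axis) of the 7 genes, with the LPS array as circles and the vehicle array as squares, 1 array each, grouped by peptide system. Adm and Agtr1a had the widest gaps, Edn1 was lower with LPS, and Agt lay near the dotted floor at 49.3. The dashed line is the 75th percentile of cluster means, 236.

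The receptor genes differed unequally. Agtr1a (Entrez 24180), the gene of the type 1A angiotensin II receptor, which carries most of the peptide's pressor and growth effects in rodents, had 2495 with LPS and 354 with vehicle. It was 7.05-fold higher, a log2 difference of 2.82, at position 130 of 14420. Both values lay above the 75th percentile of cluster means, 236, as did both values of Adm, so neither fold rests on a value near the floor. Calcrl (Entrez 25029), which encodes the membrane-spanning subunit of the adrenomedullin receptor, had 1507 with LPS and 778 with vehicle, 1.94-fold higher. At least 1.5-fold higher values were found for 6.05% of all genes. Ramp2 (Entrez 58966), whose protein partners the Calcrl product and gives it its preference for adrenomedullin, had 101 with LPS and 116 with vehicle, a log2 difference of -0.20. Both Ramp2 values were under the 75th percentile of clusters, and the vehicle value was shared by 29 clusters. The ligand gene and the Calcrl subunit were thus both higher with LPS, without a higher value of Ramp2.

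Of the processing enzymes in the set, Ece1 (Entrez 94204), the metalloprotease that releases endothelin-1 from its inactive intermediate, was measured on a single cluster. Its intensity was 2920.4 with LPS and 2633 with vehicle, 1.11-fold higher. The log2 difference of 0.15 shrank to 0.091 once a loess trend of the difference on level was removed. Ece1 was therefore slightly higher and its substrate gene Edn1 lower on the same array.

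**Figure D2:**
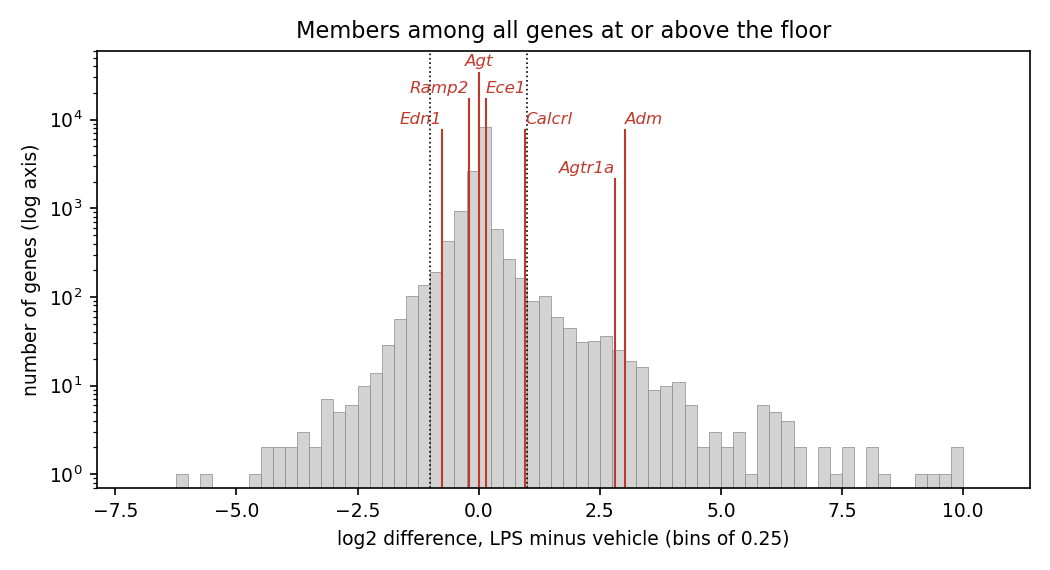
Number of genes (log axis) by log2 difference, LPS minus vehicle, in bins of 0.25 for the 14420 genes at or above the floor, with the 7 genes as labelled lines and 2-fold as dotted lines. Adm at 3.02 and Agtr1a at 2.82 lay in the sparse right tail, and the other 5 lay inside 2-fold.

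The remaining genes of these systems were taken from 6 lists of 77 genes, of which 73 had a value and 62 reached the floor. Of the 62, 5 lay at least 2-fold higher, 0 were lower by that size, and the median was 0. These counts, and those at 2-fold in each list below, stand beside shares of 3.69% higher and 2.63% lower among all 14420 genes. The 5 list genes at least 2-fold higher were Ackr3, Rgs4, Rgs5, Enpep and Apln. By sign, 29 of the 62 were higher, 19 lower and 14 identical, beside 22.4% higher, 31.7% lower and 45.9% identical over all genes at or above the floor.

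Related ligands and receptors were mostly low. Of 5 related ligand genes, Adm2, a close relative of adrenomedullin, was the 1 at the floor or above, at 141 with LPS and 130 with vehicle. Edn2, Edn3, Calca and Calcb were below the floor with identical values on both arrays. Of 7 related receptor and coreceptor genes, 4 reached the floor. Ackr3, an atypical receptor that takes up and clears adrenomedullin as well as the chemokine CXCL12, had 548 with LPS and 156 with vehicle, 3.51-fold higher. Its log2 difference was 1.81, and its fold was 2.32 when values under 236 were raised to that level. Ramp1, the partner that turns the Calcrl product into a receptor for calcitonin gene-related peptide, had 127 with LPS and 165 with vehicle, a log2 difference of -0.38. Ramp3, the other adrenomedullin partner, had 122 with LPS and 114 with vehicle, a difference of 0.095. Agtr1b, the second rodent type 1 angiotensin receptor gene, had 67.7 on both arrays, beside the 7.05-fold difference of Agtr1a. Agtr2 and Mas1, which encode receptors for angiotensin II and for angiotensin-(1-7), were below the floor with identical values.

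Among 19 further enzymes, 16 reached the floor, 1 was at least 2-fold higher and 0 were lower by that size. Enpep, aminopeptidase A, which trims angiotensin II to angiotensin III, had 2375 with LPS and 917 with vehicle, 2.59-fold higher. Mme, neprilysin, which degrades several vasoactive peptides, had 1831 with LPS and 975 with vehicle, 1.88-fold higher. Pam, the enzyme that amidates adrenomedullin to its active form, had 85745 with LPS and 83924 with vehicle, 1.02-fold higher. Furin, a convertase that cuts the endothelin precursor, was 1.22-fold higher, and Atp6ap2, the prorenin receptor gene, 1.32-fold higher. Lnpep, an aminopeptidase that binds angiotensin IV, was identical, and the lysosomal protease Ctsd had a log2 difference of -0.10. Mme, Furin and Atp6ap2 were named after their values were seen. The enzymes of the list that reached the floor thus had a median of 0, with Enpep and Mme furthest to the higher side.

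Regulators of these receptors or of their G proteins were represented by 12 genes, all at or above the floor, of which 2 were at least 2-fold higher and 0 lower by that size. Rgs4, which speeds the inactivation of Gq and Gi, had 1191 with LPS and 289.9 with vehicle, 4.11-fold higher. Rgs5, a related regulator that is also a pericyte marker, had 367 with LPS and 146 with vehicle, 2.51-fold higher, and 1.55-fold with low values raised. Rgs2, a regulator with a preference for Gq, was 1.11-fold higher. The receptor kinase Grk5 was 1.75-fold and the β-arrestin gene Arrb1 1.45-fold higher. The G proteins and effectors beneath these receptors differed little. All 26 reached the floor and 0 were at least 2-fold different, with 10 higher, 12 lower and 4 identical. Gnai2 had a log2 difference of -0.12 and the cyclic AMP-dependent kinase gene Prkaca one of -0.27. The genes furthest to either side were protein kinase C genes, Prkce at 0.50 and Prkca at -0.47, both named after their values were seen.

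In the neighbouring kinin and apelin systems, 3 of 8 genes reached the floor and all 3 were higher with LPS, beside 22.4% of all genes, with vehicle values under 236. Apln, which encodes apelin, a peptide that lowers blood pressure and strengthens contraction, had 310.5 with LPS and 123 with vehicle, 2.52-fold higher. Its fold was 1.31 with low values raised. The bradykinin receptor gene Bdkrb2 had 228 with LPS and 116 with vehicle, 1.97-fold higher, and Bdkrb1 was 1.60-fold higher. All 4 values of the bradykinin receptor genes were under 236, so with low values raised both differences were 0.

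**Figure D3:**
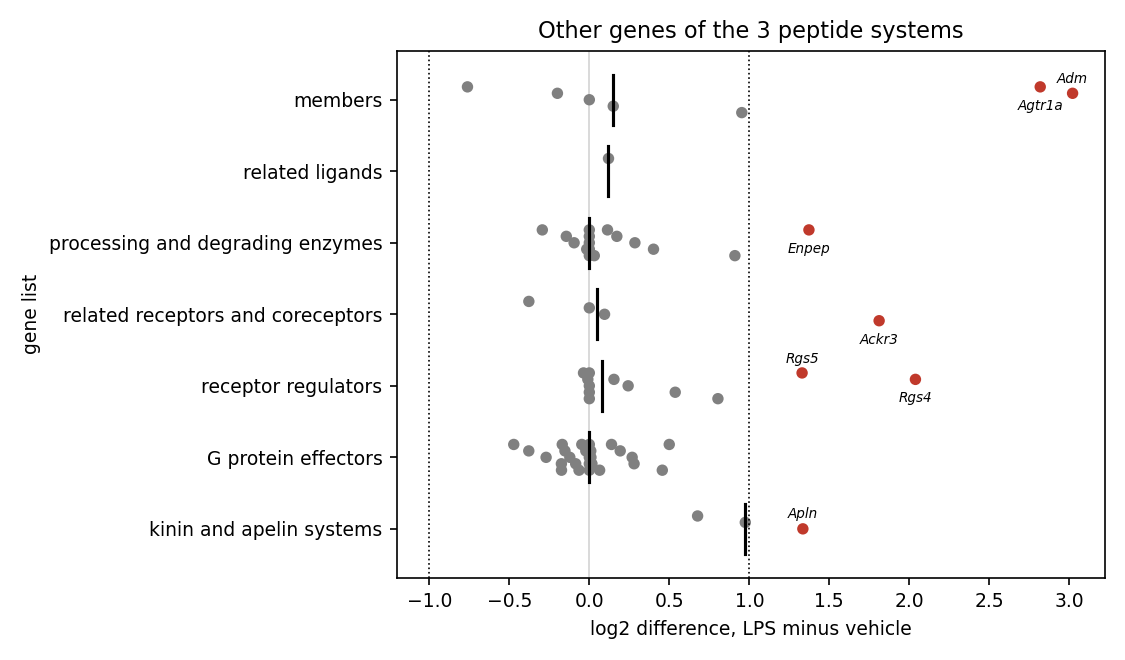
Log2 differences, LPS minus vehicle, of the genes at or above the floor in each list, 1 point per gene, with the list median as a bar and 2-fold as dotted lines. Named points are at least 2-fold different, and all of them lay on the higher side.

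Over the same arrays, the genes most like Adm and Agtr1a in mean log2 level and log2 difference were looked up by Euclidean distance. For Agtr1a they were Parp9, 6.85-fold higher at a distance of 0.063, and the class Ib histocompatibility gene RT1-S3, 7.80-fold higher at a distance of 0.16. For Adm they were the lipid phosphate phosphatase gene Plpp3, 9.40-fold higher at 0.37, and Parp9 at 0.39. With 2 arrays this likeness is no more than a similar level and a similar difference.

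The labelled cell type was checked with markers. Counts at 2-fold in all the marker lists stand beside 3.69% of genes at or above the floor higher and 2.63% lower. Cardiomyocyte genes had high values on both arrays, such as Pln at 202671 with LPS and 203253 with vehicle and Myh7 at 129437 on both. Actn2 had 86794 with LPS and 123285 with vehicle, a log2 difference of -0.51. Of the 12 markers, 1 was under 236 on both arrays, the atrial light chain gene Myl7, at 122 with LPS and 169.5 with vehicle. Of 12 cardiomyocyte markers, 0 were at least 2-fold higher and 1, Myl4, was at least 2-fold lower, and their summed intensity was 580594 with LPS and 618878 with vehicle. In bulk RNA, fewer cells of a type and less RNA per cell cannot be told apart.

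Endothelial cells are a main source of endothelin-1 and carry Calcrl, Ramp2 and Ece1, so their markers are given beside those genes. Of 11 measured endothelial markers, 8 were under 236 on both arrays, between 38.3 and 92.1, among them Pecam1, Cdh5, Tie1, Emcn and Vwf. At or above the floor, 1 of 9 was at least 2-fold higher, Kdr, a receptor for vascular endothelial growth factor. Kdr had 1975 on the LPS array and 715 on the vehicle array. Emcn and Vwf lay at the floor itself, a value shared by 173 clusters with LPS and 160 with vehicle. The summed intensity of the 9 was 2843 with LPS and 1714 with vehicle. Without Kdr the sum of the other 8 was 868 with LPS and 999 with vehicle. Among these 8, Tek had 246 with LPS and 346 with vehicle, and Flt1 had 191 with LPS and 241 with vehicle. By sign, 2 of the 9 were higher, 3 lower and 4 identical.

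Angiotensin type 1 receptors are also carried by cardiac fibroblasts, and fibroblast markers moved in both directions beside Agtr1a. Of 10 markers, 3 lay at least 2-fold higher and 3 were lower by that size, with a median of -0.13. Over all genes at or above the floor, the shares were 3.69% higher and 2.63% lower. The higher ones were Dcn, Pdgfra and Lum. Dcn had 177435 with LPS and 13840 with vehicle, and Pdgfra had 53019.7 with LPS and 5029 with vehicle. Lum had 8222 with LPS and 1395 with vehicle. Thy1, Col3a1 and Tcf21 were the lower ones, while Col1a1 had 132860 with LPS and 166482 with vehicle. The summed intensity was 643748 with LPS and 507347 with vehicle, and without Dcn it was 466313 with LPS and 493507 with vehicle. Smooth muscle and pericyte markers, of which Rgs5 is one, had a median of -0.67. Of 10, 2 were at least 2-fold higher and 3 lower, and the sum was 214928 with LPS and 479597 with vehicle. The count on the higher side, Rgs5 and Kcnj8, was 0 with low values raised. The lower ones were Acta2, Tagln and Notch3. Acta2 had 110838 with LPS and 311396 with vehicle, and Tagln had 12438 with LPS and 60692 with vehicle. The log2 difference of Notch3 was -0.15 with low values raised. Macrophage markers had a median of -0.55 over 9 genes, with 1 at least 2-fold higher, Adgre1, and 3 lower. Their sums were 31102 with LPS and 26241 with vehicle. Adgre1 had 8803 with LPS and 64.4 with vehicle, 137-fold higher, and its fold was 37.3 with low values raised. Without Adgre1 the sums were 22299 with LPS and 26177 with vehicle. The 3 lower macrophage markers were Csf1r, Mrc1 and C1qb, with log2 differences of -1.76, -1.80 and -2.02. That of C1qb was -0.59 with low values raised. The part of other cell types in the values of Adm, Agtr1a, Calcrl and Edn1 was not tested.

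**Figure D4:**
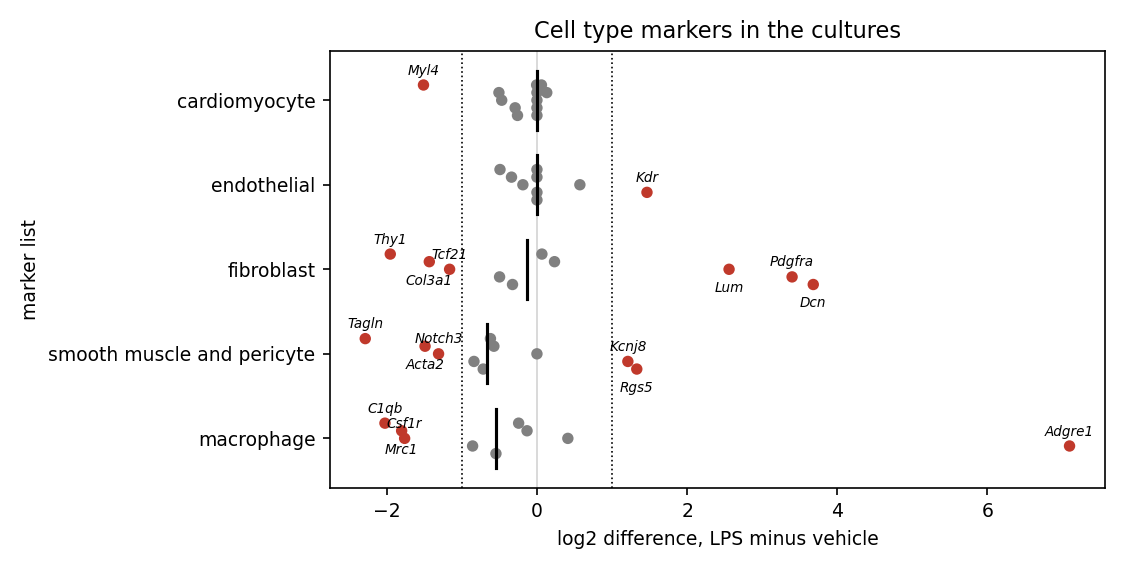
Log2 differences, LPS minus vehicle, of cell type markers at or above the floor, 1 point per gene, with list medians as bars and 2-fold as dotted lines. Cardiomyocyte and endothelial medians lay at or near 0, and the other 3 lists held members past 2-fold on both sides.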

How the data were processed

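RNA from neonatal rat cardiomyocyte cultures, 1 array for LPS and 1 for vehicle, was labelled with the GeneChip WT PLUS kit, per the labels' protocols. The sources used here do not say whether cultures were pooled. The authors deposited linear-scale intensities, made with RMA in Affymetrix Expression Console 1.4.1, per the submitters' processing notes. RMA corrects background, equalises the arrays' distributions and summarises probes. Log2 of these values was used as it stood, without a pseudocount. Identical values on both arrays were found for 67.2% of clusters, also at high levels such as that of Myh7, and the reason was not tested. Of 68842 clusters, 23446 had 1 symbol, 505 several and 44891 none. Symbols were updated by Entrez ID against RefSeq (GRCr8), where 22077 matched. The cluster with the highest mean was used for a gene. With 1 array a group, which limits the precision, a fixed size of 2-fold was used to count genes, without a test. The counting step was run on simulated data without noise, which checks the code but not how the count behaves with single arrays. Genes were named from a rule: all members, list genes at least 2-fold different, those with the highest levels, and the 2 genes nearest to each member at least 2-fold different. Not every marker gene that met the rule is named, and some genes were named after their values were seen. The members, lists and settings were chosen with earlier results of these data known. Alternatives were centring, removal of a loess trend (span 0.3, 0 robust iterations), other rows of a gene, other floors, raised low values and sizes of 1.5-fold and 3-fold. Python 3.11.15, pandas 2.3.3, numpy 2.4.6 and statsmodels 0.14.6 were used.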

Additional observations from a re-analysis of the deposited data

How the results depend on the processing

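Removal of the loess trend and raising of low values moved the differences of the 7 members by at most 0.20 on the log2 scale, and none passed to the other side of 2-fold. The move of 0.20 was that of Ramp2, whose difference was 0 with low values raised. Each member had 1 cluster and the arrays had equal medians, so the choice of row and centring could change nothing for them. At a size of 1.5-fold, the members lower numbered 1, Edn1, in place of 0, the members higher 3, with Calcrl, in place of 2, and the other pathway genes higher numbered 9 in place of 5. The count of other pathway genes higher was 2 at a size of 3-fold and 3 with low values raised, where Rgs5 and Apln were under 2-fold. Of 90 marker list counts, 82 stayed within 1.5 times. Centring could change none of these counts, and the choice of row could touch only markers with more than 1 cluster. Most of the counts that left that range did so at a size of 3-fold. No paired analysis was possible because each group had 1 array. Values without replicates carry no error, detection calls were not used here, and both values of Agt and the vehicle value of Ramp2 were shared by other clusters. Marker sums without Kdr, Dcn or Adgre1 were added after the data were seen.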

Other observations

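Because Rgs4 and Rgs5 were among the genes at least 2-fold different, all genes with an RGS symbol and a number were listed after those values had been seen. RGS proteins speed the inactivation of the G proteins through which the endothelin and angiotensin receptors act. Of 20 such genes with a value, 15 reached the floor, 3 were at least 2-fold higher with LPS and 2 at least 2-fold lower, with a median of 0. Over all genes at or above the floor, 3.69% were higher and 2.63% lower by that size. Rgs9 was the third on the higher side, at 241 with LPS and 103 with vehicle, but its log2 difference was 0.029 with low values raised. Rgs18, which is known from platelets and other blood cells, had 106 with LPS and 989 with vehicle, a log2 difference of -3.22, or -2.07 with low values raised. Rgs21 had 50.3 with LPS and 409 with vehicle, a difference of -3.02, or -0.79 with low values raised. The genes at least 2-fold different lay on both sides, and those on the higher side included Rgs4 and Rgs5, which had prompted the list. With low values raised, only Rgs4 at 2.04 and Rgs18 at -2.07 stayed past 2-fold.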
